A study of Mus musculus with 7 samples.

Results

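The genes described here are early transcriptional read-outs and brakes of bone morphogenetic protein (BMP) signalling, or for Skil of TGF-beta signalling. With them are the genes of an endothelial BMP receptor and its co-receptor. The members include the Id genes Id1, Id2, Id3 and Id4 and the inhibitory Smads Smad6 and Smad7. The others are the repressors Skil and Bambi and the receptor genes Acvrl1 and Eng. The list was given by name, and each gene was read from probe sets whose platform annotation carries that symbol alone. All 10 genes had exactly 1 such probe set, so no choice between probe sets arose. They are 10 of 22180 genes with a probe set of their own, and all 10 were among the 15582 genes bright enough to be tested.

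The study measured RNA from vascular fragments of the brain, which are pieces of small vessels with attached cells, on 1 microarray per sample. The mice were 12-week-old females of strain C57BL/6N per the series' design text (C57BL/6 in the sample labels), and no transgene is named. One group received PDGF-CC, a platelet-derived growth factor and ligand of PDGFR-alpha, into a cerebral ventricle (4 arrays), and the other received phosphate-buffered saline, PBS (3 arrays). Both were killed 4 hours after injection, so an injection into the ventricle is common to both groups, and uninjected mice are not part of the comparison. The labels do not say whether a sample is 1 mouse or a pool, so the spread behind the p-values is that of these samples and may be partly technical.

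In BMP signalling a ligand dimer binds type I and type II receptor kinases, which phosphorylate Smad1, Smad5 and Smad9. These enter the nucleus with Smad4 and switch on a small set of immediate targets, among which the Id genes are the best known. Id proteins are helix-loop-helix proteins without a DNA-binding region, and they hold E proteins away from DNA. In endothelium the circulating ligands BMP9 and BMP10 act through the type I receptor ALK1, encoded by Acvrl1, with endoglin, encoded by Eng, as co-receptor. Smad6, Smad7 and Bambi are themselves induced by the pathway and restrain it, and Skil is a feedback repressor of TGF-beta signalling.

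Activated Smads read short DNA elements, and the letters of these elements near the start sites of the members are shown because the group is defined by its response to those factors. RefSeq promoter sequences of build GRCm38.p6, running from 250 bases before to 50 bases after a start site, were held for 5 of the 10 genes (Id2, Id3, Id4, Smad6 and Eng). The motifs were searched on both strands: the GC-rich box GGCGCC of BMP Smads, the palindrome GTCTAGAC bound by Smad3 and Smad4, and the shorter Smad box CAGAC. No letters of one motif contain another. Capitals below mark the match, and each sequence is written 5′ to 3′ on the strand of the gene.
Id2 (chr12:25096292-25096342, minus strand, box starting at position -231): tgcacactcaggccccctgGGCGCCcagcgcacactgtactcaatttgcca
Id4 (chr13:48260942-48260999, plus strand, box starting at position -148): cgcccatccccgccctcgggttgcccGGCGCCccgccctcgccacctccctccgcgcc
Smad6 (chr9:64022040-64022089, minus strand, palindrome starting at position -4): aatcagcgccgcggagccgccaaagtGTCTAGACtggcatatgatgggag
The GC-rich box occurred in 11.9% of all 32851 promoters of that length, the palindrome in 0.213% and the CAGAC box in 49.6%. The palindrome lies across the start site of Smad6. Id3 had CAGAC starting at position -167 and its complement GTCTG at -68, and Eng had them at -214 and -127. A match describes letters only and is not evidence of binding.

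None of the 10 genes differed between PDGF-CC and PBS at an adjusted p under 0.05 by limma (Benjamini-Hochberg over all 17734 tested probe sets). The count was 0 of 10, where 0% of all tested genes passed, and adjusted p ran from 0.769 to 0.968. The median difference, PDGF-CC minus PBS, was +0.08 on the log2 scale against -0.00285 over all tested genes. Of the 10 differences 8 were positive, where 48.7% of tested genes were positive. At an unadjusted p under 0.05 there was 1 higher member, Id2, against 2.58% of tested genes, and 0 lower members against 3.30%. In Id2 and Smad7, that is 2 of 10, every PDGF-CC array lay above every PBS array, as it did in 1.81% of tested genes. None of the 10 lay wholly below, against 2.37%. The members were chosen with earlier results of these data known, so nothing about the group is read from these shares. With all 7 arrays, the separate 95% intervals of the 10 differences stayed between a log2 value of -0.49 and +0.72, or 0.713-fold and 1.64-fold. Larger shifts lie outside each of these intervals, which do not hold jointly at 95%. Without PBS array 3 the interval of Id4 reached down to -0.68 and that of Smad7 up to +0.87.

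**Figure D1:**
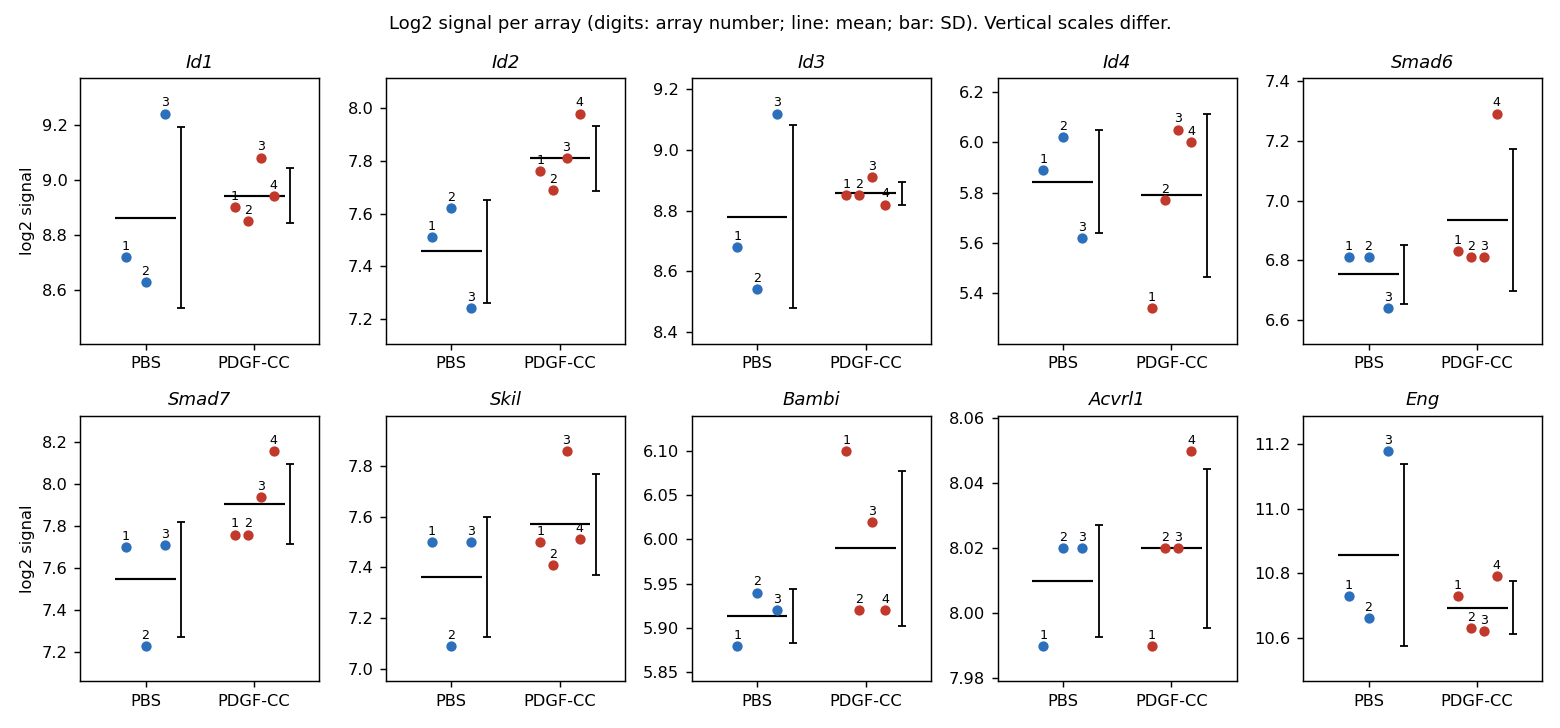
Log2 signal of the 10 genes on every array, PBS in blue and PDGF-CC in red, with digits for the array number, a line at the group mean and a bar of 1 SD; vertical scales differ between panels. Id2 and Smad7 show no overlap between groups, and PBS array 3 is the highest of all 7 arrays for Id1, Id3 and Eng.

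Among the Id genes, Id2 was the one whose groups did not overlap. Id2, which is expressed in many cell types, had log2 signals of 7.76, 7.69, 7.81 and 7.98 on PDGF-CC arrays 1 to 4 and 7.51, 7.62 and 7.24 on PBS arrays 1 to 3. All 4 PDGF-CC arrays were above the highest PBS array, with a gap that was small beside the range within PBS. The difference was +0.36 ± 0.11 (log2, SE, n = 4 and 3), or 1.28-fold with a 95% interval of 1.07 to 1.53, with an adjusted p of 0.769 by limma. By p it was number 222 of the 15582 tested genes.

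Id1, the classical BMP target in endothelial cells, had signals of 8.90, 8.85, 9.08 and 8.94 with PDGF-CC and 8.72, 8.63 and 9.24 with PBS. PBS array 3 was above every PDGF-CC array and the other PBS arrays were below every one. The difference was +0.08 ± 0.15 (log2, SE, n = 4 and 3; 95% interval -0.27 to +0.43; limma adjusted p = 0.899). Id3, which acts with Id1 in vessel growth, showed the same arrangement, with 8.85, 8.85, 8.91 and 8.82 against 8.68, 8.54 and 9.12. Its PDGF-CC arrays were tightly grouped, with an SD of 0.04 against 0.30 in PBS. The difference was +0.08 ± 0.13 (log2, SE, n = 4 and 3; 95% interval -0.23 to +0.39; limma adjusted p = 0.885).

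Id4, known from neural precursors and astrocytes, had signals of 5.34, 5.77, 6.05 and 6.00 with PDGF-CC and 5.89, 6.02 and 5.62 with PBS. PDGF-CC array 1 was the lowest of all 7 and the groups overlapped throughout. The difference was -0.05 ± 0.19 (log2, SE, n = 4 and 3; 95% interval -0.49 to +0.39; limma adjusted p = 0.950), the widest interval among the members, and the sign turned on dropping PDGF-CC array 1 (+0.10) or PBS array 2 (+0.04).

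Of the pathway's brakes, Smad7 had the largest difference. Smad7 encodes an inhibitory Smad that blocks type I receptors of the TGF-beta and BMP branches and recruits ubiquitin ligases to them. Its signals were 7.76, 7.76, 7.94 and 8.16 with PDGF-CC and 7.70, 7.23 and 7.71 with PBS. The groups did not overlap, but the lowest PDGF-CC and the highest PBS array were close, and PBS array 2 was far below the others. The difference was +0.35 ± 0.15 (log2, SE, n = 4 and 3), or 1.28-fold with a 95% interval of 0.995 to 1.64, and the limma adjusted p was 0.769. Without PBS array 2 it was +0.20.

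Smad6, the inhibitory Smad that acts mainly on BMP receptors, had 6.83, 6.81, 6.81 and 7.29 with PDGF-CC and 6.81, 6.81 and 6.64 with PBS. A single array, PDGF-CC array 4, stood above the rest. PDGF-CC arrays 2 and 3 and PBS arrays 1 and 2 held exactly the same deposited value. The difference was +0.18 ± 0.13 (log2, SE, n = 4 and 3; limma adjusted p = 0.773), and +0.07 without PDGF-CC array 4.

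Skil encodes SnoN, a repressor that binds Smads on DNA and is induced by TGF-beta in a feedback loop. Its signals were 7.50, 7.41, 7.86 and 7.51 with PDGF-CC and 7.50, 7.09 and 7.50 with PBS. PDGF-CC array 3 was high and PBS array 2 low, and the other 5 arrays lay close together. The difference was +0.21 ± 0.14 (log2, SE, n = 4 and 3; limma adjusted p = 0.772), and it was +0.11 after leaving out PDGF-CC array 3 and +0.07 after leaving out PBS array 2. Bambi, a pseudoreceptor that lacks the kinase part, ranged from 5.92 to 6.10 with PDGF-CC and from 5.88 to 5.94 with PBS. Its difference was +0.08 ± 0.060 (log2, SE, n = 4 and 3; limma adjusted p = 0.782), with +0.04 without PDGF-CC array 1.

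The receptor gene Acvrl1 was the steadiest member. Its signals were 7.99, 8.02, 8.02 and 8.05 with PDGF-CC and 7.99, 8.02 and 8.02 with PBS, and 4 of the 7 arrays held exactly the same value. The difference was +0.01 ± 0.044 (log2, SE, n = 4 and 3), and its 95% interval of 0.936 to 1.08-fold was the narrowest of the group. Exactly equal values in some arrays occurred in 64.3% of tested genes, and in 6 of the 10 members (Smad6, Smad7, Skil, Bambi, Acvrl1 and Eng). How such values arose in the deposited table was not tested. They may narrow the measured spread, which was not tested either.

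Eng, which encodes endoglin, had 10.73, 10.63, 10.62 and 10.79 with PDGF-CC and 10.73, 10.66 and 11.18 with PBS. PBS array 3 stood apart and the other 6 arrays overlapped. The difference was -0.16 ± 0.13 (log2, SE, n = 4 and 3; limma adjusted p = 0.782), the largest negative value of the group. Without PBS array 3 it was 0.0003, with a 95% interval of -0.17 to +0.17.

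**Figure D2:**
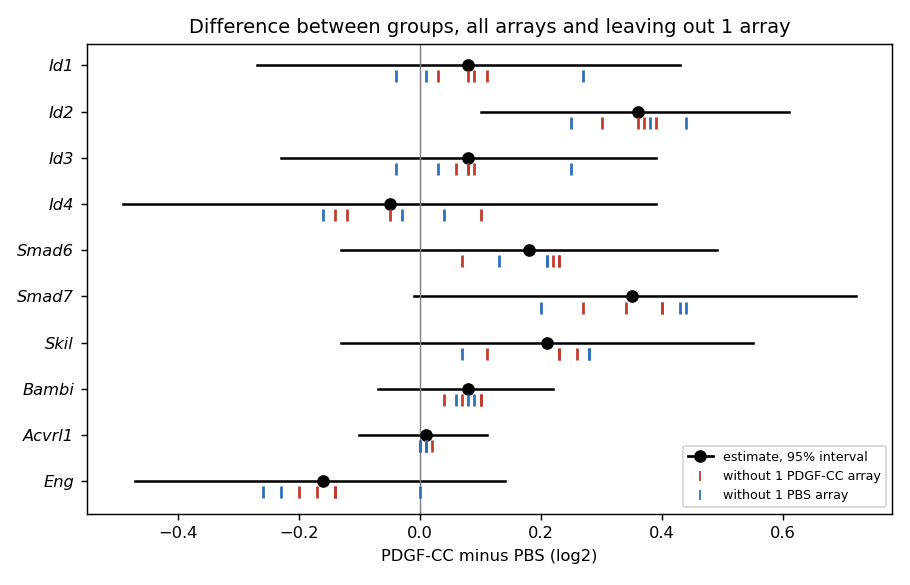
PDGF-CC minus PBS on the log2 scale for each gene, with the 95% interval of the limma fit (black) and the value after leaving out 1 PDGF-CC array (red ticks) or 1 PBS array (blue ticks). The interval of Id2 alone lies wholly above 0, at +0.10 to +0.61, and the blue ticks of Id1 and Id3 run from -0.04 to +0.27 and from -0.04 to +0.25.

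The values of Id1, Id3 and Eng turned on single PBS arrays. Without PBS array 2, Id1 and Id3 were both at -0.04 and Eng at -0.26. Without PBS array 3, Id1 differed by +0.27 ± 0.080 and Id3 by +0.25 ± 0.062 (log2, SE, n = 4 and 2), with adjusted p of 0.776 and 0.749 by limma. The median of the 10 genes was then +0.19. In 4 of the 10 genes (Id1, Id2, Id3 and Smad7) every PDGF-CC array was above both remaining PBS arrays, where 6.05% of tested genes were. For Id1 and Id3 this follows from the arrangement of the arrays given above, so nothing is read from that count. The same 4 had an unadjusted p under 0.05, against 2.79% of tested genes on the higher side, which rests on the same choice of array, and none passed the adjusted threshold, as 0% of tested genes did. Leaving out any other single array kept Id2 and Smad7 alone as the members without overlap. PBS array 3 also had the highest mean of the endothelial markers (15 of 15 tested), at 10.79 against 10.57 to 10.72 on the other arrays, and the highest pericyte mean, at 9.22 against 8.68 to 9.09. The part of these markers in the result was not tested. In tissue fragments a change in the share of a cell type and a change in RNA per cell cannot be told apart.

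**Figure D3:**
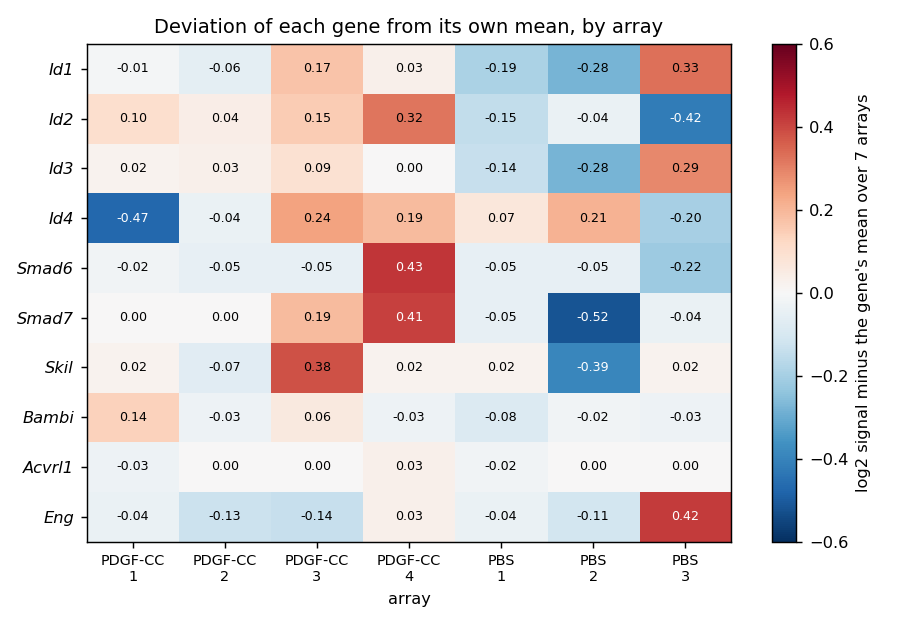
Deviation of each gene's log2 signal from its own mean over the 7 arrays (red above, blue below, values printed in the cells). PBS array 3 is at +0.33 for Id1, +0.29 for Id3 and +0.42 for Eng but at -0.42 for Id2, and PBS array 2 is at -0.52 for Smad7 and -0.39 for Skil.

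The mean levels of some marker lists of other cell types did not overlap between the groups, although no marker of any list passed the adjusted threshold (lowest limma adjusted p 0.769). Of 7 tested choroid plexus markers all 7 had negative differences. Their mean level was 6.49 to 7.34 on PDGF-CC arrays and 7.51 to 7.85 on PBS arrays. Of the 7, 6 were wholly lower, against 2.37% of tested genes. All 7 were lower at an unadjusted p under 0.05 by limma, against 3.30%. Of 7 tested microglial markers 6 were positive, with a mean level of 9.94 to 9.97 against 9.43 to 9.89. Of the 7, 1 was wholly higher, against 1.81% of tested genes. At an unadjusted p under 0.05 by limma 2 were higher, against 2.58%. PBS array 2, the lowest array for Id1, Id3, Smad7 and Skil, had the lowest mean of the microglial and of the endothelial markers. Lymphocyte markers (4 tested) had a mean level of 4.70 to 4.88 against 4.51 to 4.64. Of the 4, 0 were wholly higher or lower, and 1 was higher at an unadjusted p under 0.05 by limma. Kcnj13 had no probe set of its own and Ms4a1 was under the brightness filter. Endothelial markers overlapped between groups, at 10.59 to 10.72 with PDGF-CC and 10.57 to 10.79 with PBS. The part of these lists in the differences of the 10 genes was not tested.

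The sample descriptions number the 7 samples, with PDGF-CC at 1, 2, 5 and 6 and PBS at 3, 4 and 7. Smad7 and Skil had similar differences within numbers 1 to 4 and within 5 to 7, with +0.29 and +0.34 for Smad7 and +0.16 and +0.18 for Skil. Id2 was at +0.16 within 1 to 4 and +0.66 within 5 to 7, and Smad6 at +0.01 and +0.41. Id1, Id3 and Id4 had opposite signs in the parts, with +0.20 and -0.23 for Id1, +0.24 and -0.25 for Id3, and -0.40 and +0.41 for Id4. Eng was at -0.01 and -0.48. The part with 5 to 7 holds 1 PBS array, PBS array 3.

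Among the members, Id1 and Id3 followed each other most closely across the 7 arrays. Their Pearson r was 0.96 (exact permutation p = 0.00198, 2-sided, adjusted p = 0.0893 over 45 pairs) and their Spearman rho 0.86 (exact permutation p = 0.0238, adjusted p = 0.536). Without PBS arrays 2 and 3, the arrays farthest from the median of Id1, r was 0.89, and for deviations from the group means it was 0.96. No pair of the 45 passed the adjusted threshold by r or by rho, and 2 pairs had an unadjusted exact permutation p under 0.05 for r. The other of these was Id2 with Smad6, at r = 0.80 (exact permutation p = 0.0429, adjusted p = 0.692) and rho = 0.81 (exact permutation p = 0.0381, adjusted p = 0.571). The r of that pair rested on PDGF-CC array 4 and PBS array 3, without which it was 0.38. The arrays then left include the 4 with exactly the same value of Smad6. The value of 0.38 therefore cannot show whether the relation holds among them, and rho carries the same ties. The median r over the 45 pairs was 0.17, with 31 pairs above 0, and Id2 with Eng had the most negative, at -0.67 (exact permutation p = 0.134, adjusted p = 0.692).

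All 15582 tested genes were ranked by Pearson r to each member over the 7 arrays. Smad7, Skil and Eng had a gene of the same pathway or cell type as their nearest neighbour. The nearest genes of the other members, given below, were in none of the lists used here. Their r ran from 0.964 for Id2 to 0.996 for Smad6, where those of Smad7, Skil and Eng lay between 0.992 and 0.995. Nothing about the pathway is read from the matches. No p is given for these values, since each is the highest of many. For Smad7 the nearest gene was Acvr1, which encodes the BMP type I receptor ALK2, at r = 0.992 (rho = 0.84), and r was 0.94 after leaving out PDGF-CC array 4 together with PBS array 2. For Skil it was Smad2, the Smad of the TGF-beta and activin branch, at r = 0.992 (rho = 0.85), and r was 0.96 after leaving out PDGF-CC array 3 together with PBS array 2.

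For Eng the nearest gene was Tek, which encodes the endothelial receptor TIE2, at r = 0.995 (rho = 0.96), and r was 0.97 after leaving out PDGF-CC array 3 together with PBS array 3. Tek itself had its highest signal, 10.95, on PBS array 3, against 10.56 to 10.69 on the others. Id3 stood 9th from Id1 and Id1 10th from Id3, at r = 0.964, behind Amer1 (r = 0.983) and Fscn1 (r = 0.985) respectively. The nearest genes of the other members were Ppm1g for Id2 (0.964), Suz12 for Id4 (0.979), Shisal1 for Smad6 (0.996), Fam171a2 for Bambi (0.984) and Pdcd7 for Acvrl1 (0.995). The value for Shisal1 rested on PDGF-CC array 4 and PBS array 3, since 4 of the other 5 arrays held the same value of Smad6. That for Pdcd7 rested on small differences, since Acvrl1 ranged from 7.99 to 8.05 and 4 of the 7 arrays held the same value. The mean of the 10 members, each centred on its own mean, was nearest to Nxph2 (0.982), Slc6a8 (0.967), Lima1 (0.961), Rad21 (0.960) and Commd10 (0.957).

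**Figure D4:**
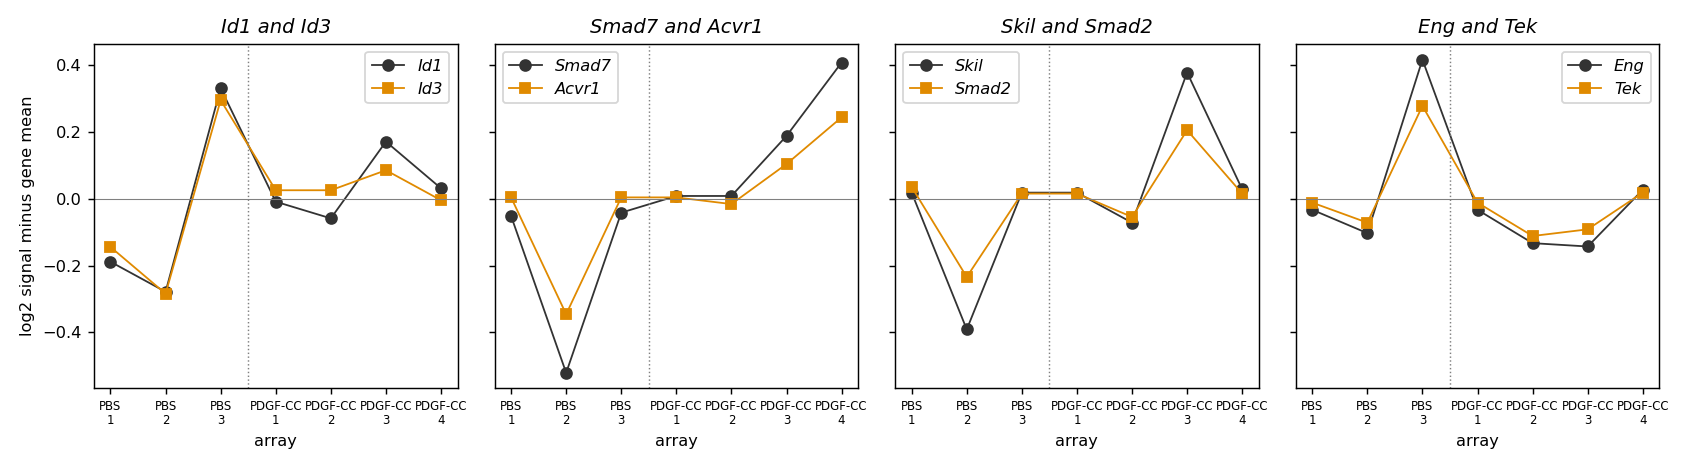
Log2 signal minus the gene's own mean on each array, PBS left and PDGF-CC right of the dotted line, for Id1 with Id3 and for 3 members with their nearest tested gene. Smad7 and Acvr1 share a low PBS array 2, Skil and Smad2 a low PBS array 2 and a high PDGF-CC array 3, and Eng and Tek a high PBS array 3.

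No further gene of the pathway passed the adjusted threshold. Over 9 lists, 91 of 105 further genes of the BMP and TGF-beta pathways were tested, of which 0 passed and 55 were positive, with a median of +0.03. Of the 91, 2 had a positive difference with an unadjusted p under 0.05 (Junb and Snai2), where 2.58% of tested genes did, and 5 a negative one (Atoh8, Gja4, Tob1, Sostdc1 and Ccn2), where 3.30% did. The groups did not overlap in 7, of which 4 were higher with PDGF-CC (Tgfb1, Chrd, Ltbp1 and Junb), against 1.81% of tested genes, and 3 were lower (Bmp7, Tob1 and Atoh8), against 2.37%. Nothing about the pathway is read from these small counts.

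Of 8 tested BMP ligands 5 were positive, with a median of +0.05. Bmp2 and Bmp4 were at +0.08 ± 0.13 and +0.07 ± 0.083 (log2, SE, n = 4 and 3). Bmp7 had the widest difference of the list, at -0.49 ± 0.22 (limma adjusted p = 0.769), with every PDGF-CC array (5.24 to 6.06) below every PBS array (6.12 to 6.52), and it was at -0.31 without PDGF-CC array 1. Within description numbers 1 to 4 Bmp7 was at -0.82, and within 5 to 7 at -0.11. Gdf5 was at +0.20 ± 0.089 and Bmp3 at +0.13 ± 0.11. Gdf5 was at +0.11 without PBS array 1 and at -0.02 within description numbers 5 to 7, and Bmp3 at +0.04 on dropping PDGF-CC array 4 and +0.07 on dropping PBS array 1. Gdf2, which encodes BMP9, was near the brightness filter of 4.145, with a PDGF-CC mean of 4.59.

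Of 6 TGF-beta and activin ligands 4 were positive, with a median of +0.06. Tgfb1 differed by +0.22 ± 0.13 (log2, SE, n = 4 and 3; limma adjusted p = 0.770). Its 4 PDGF-CC arrays lay between 8.98 and 9.01, level with or just above PBS arrays 1 (8.94) and 3 (8.98), while PBS array 2 was at 8.41. Without PBS array 2 the difference was +0.04, and within description numbers 5 to 7 it was +0.02. Inhbb, a subunit of activin B, was at -0.30 ± 0.13 and Inha at +0.08 ± 0.071. Inhbb was at -0.17 without PBS array 1, at -0.47 without PBS array 3 and, with the direction turned, at +0.04 within description numbers 5 to 7, while Inha was at +0.03 without PDGF-CC array 4.

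Of the other receptors and co-receptors 6 of 11 tested were positive (median +0.04), and of the other Smads 5 of 6 (median +0.06). Acvr1 differed by +0.20 ± 0.11, Tgfbr1 by +0.17 ± 0.11 and Tgfbr3, which encodes betaglycan, by -0.11 ± 0.068 (log2, SE, n = 4 and 3). Without PBS array 2, Acvr1 was at +0.08 and Tgfbr1 at +0.04, and without PBS array 3, Tgfbr3 was at -0.05. The signal transducers Smad1 and Smad5 were at -0.06 ± 0.051 and +0.01 ± 0.061, and the common partner Smad4 at +0.01 ± 0.043. Smad9 was at +0.17 ± 0.097, Smad3 at +0.16 ± 0.12 and Smad2 at +0.11 ± 0.094. Without PBS array 2, Smad3 and Smad2 were both at +0.02. Smad9 was at +0.27 without PBS array 3. Within description numbers 5 to 7, Smad9 was at -0.05 and Smad3 at +0.003. Limma adjusted p for these genes lay at 0.769 or above.

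Extracellular antagonists and modulators (17 tested) were 9 positive and 8 negative. Sostdc1, a secreted BMP and Wnt antagonist that choroid plexus also expresses, had the widest difference, at -0.82 ± 0.31 (log2, SE, n = 4 and 3; limma adjusted p = 0.769). Its signals were 5.49 to 6.68 with PDGF-CC and 6.54 to 7.41 with PBS, so that the groups overlapped. The mean of the choroid plexus markers given above was also lower on the PDGF-CC arrays than on the PBS arrays. The part of choroid plexus in the Sostdc1 difference was not tested. The activin antagonist Fst was at +0.24 ± 0.12, but its PBS mean, 4.07, was under the brightness filter, so that it was tested only because of its PDGF-CC mean of 4.31. Within description numbers 1 to 4 Fst was at +0.44, and within 5 to 7 at +0.01. Ltbp3 was at +0.17 ± 0.080, and at +0.10 without PBS array 1.

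Among intracellular regulators (13 tested, 8 positive, median +0.02), Tob1, an antiproliferative protein that restrains BMP Smads, differed by -0.47 ± 0.16 (log2, SE, n = 4 and 3; limma adjusted p = 0.769). Its PBS arrays were nearly equal, at 7.73 to 7.75, and all PDGF-CC arrays were below them, at 6.93 to 7.54. Tob1 was at -0.35 without PDGF-CC array 1, at -0.71 within description numbers 1 to 4 and at -0.23 within 5 to 7. Pmepa1, a feedback inhibitor of TGF-beta signalling, was at +0.17 ± 0.076 and Ski, the relative of Skil, at +0.16 ± 0.083. Dropping PBS array 2 gave +0.10 for Ski and dropping PBS array 3 gave +0.25, and it was at -0.05 within description numbers 5 to 7. Pmepa1 was at +0.26 within description numbers 1 to 4 and at +0.004 within 5 to 7.

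Of 8 tested further targets of BMP9 and BMP10 in endothelium, 4 were positive and 4 negative, with a median of -0.05. Atoh8, a helix-loop-helix factor induced through ALK1, had 5.02, 5.42, 5.19 and 4.91 with PDGF-CC and 5.47, 5.73 and 5.56 with PBS. Every PDGF-CC array was below every PBS array, and the difference was -0.45 ± 0.13 (log2, SE, n = 4 and 3; limma adjusted p = 0.769). Gja4, which encodes an arterial gap junction protein, was at -0.27 ± 0.11 and Gata2 at -0.30 ± 0.14. Gja4 was at -0.15 without PBS array 2 and Gata2 at -0.14 without PBS array 3. Hey1 and Tmem100 were at -0.12 ± 0.10 and +0.01 ± 0.25.

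TGF-beta targets (12 tested with Skil, 8 positive, median +0.05) held differences in both directions. Junb, an AP-1 gene that many signals induce, was at +0.50 ± 0.14, with 7.94 to 8.49 with PDGF-CC above 7.54 to 7.74 with PBS. Snai2 was at +0.27 ± 0.085 and Ccn2 at -0.58 ± 0.21 (log2, SE, n = 4 and 3; limma adjusted p = 0.769 for each). Among 11 tested partners of Id proteins and factors they regulate, 7 were positive, with a median of +0.05. Lyl1, a helix-loop-helix factor of endothelium and blood, was at +0.30 ± 0.15, Hes5 at +0.25 ± 0.12 and Olig2, near the filter, at +0.12 ± 0.055. Lyl1 was at +0.13 without PBS array 2, and Hes5 at +0.16 without PBS array 3 and +0.04 within description numbers 1 to 4.

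**Figure D5:**
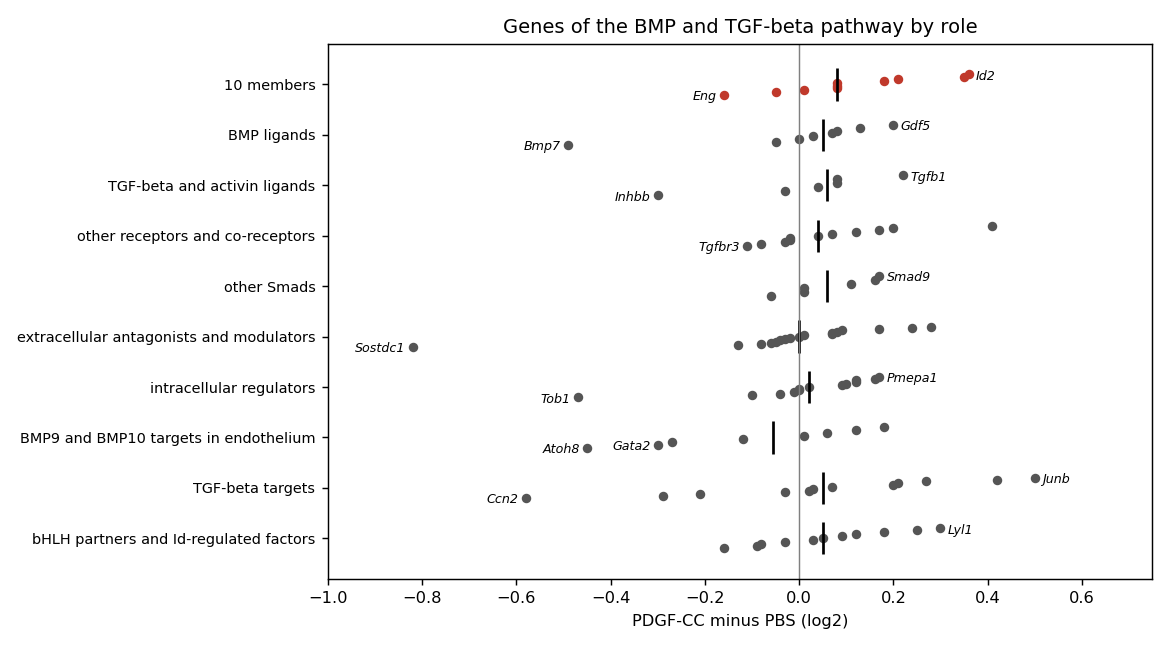
PDGF-CC minus PBS on the log2 scale for each tested gene, by role, with the 10 members in red, other genes in grey and a line at each list's median. List medians lie between -0.05 and +0.08, and the points farthest from 0 are Sostdc1 at -0.82, Ccn2 at -0.58 and Junb at +0.50.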

How the data were processed

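The authors deposited 1 table of log2 values for 33793 probe sets on 7 arrays. Per the submitters' processing notes the tools included Affymetrix Expression Console, RMA and limma (no versions given), and the genome build is not given in the sources used here. The log2 scale was inferred from the range and the nearly equal quartiles of the deposited columns. RMA sets distributions equal between arrays, which removes differences in total RNA. Per the labels' protocols, 10 ng of RNA per sample was amplified. Arrays give no read depth, and precision is limited by their number.

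Probe sets were named from the platform annotation: 23521 had 1 symbol, 1814 several and 8458 none. The 17734 probe sets with a symbol whose mean exceeded the 30th percentile (4.145) were tested with limma 3.58.1 (lmFit, eBayes; R 4.3.3) and no covariates. Tests were 2-sided at a Benjamini-Hochberg threshold of 0.05. Each gene is its brightest probe set. Exact permutation used all 5040 pairings of the arrays. The fit was tested on simulated data. Lists were matched through RefSeq names of GRCm38.p6. The members and lists were chosen with earlier results of these data known. From each pathway list, the 3 genes with the smallest p are named; other pathway genes (Bmp2, Bmp4, Gdf2, Chrd, Ltbp1, Smad1, Smad4, Smad5, Hey1, Tmem100) were chosen after their values were seen. Figures were drawn with matplotlib 3.10.9. Alternatives are in the closing section.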

Additional observations from a re-analysis of the deposited data

Results flagged for a closer look

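Smad6 on PDGF-CC array 4, at a log2 signal of 7.29, was far from the other arrays of its group. Its gap to the nearest PDGF-CC array was 0.947 of the group's whole range, above the critical value of 0.829 for 4 samples. PDGF-CC arrays of all 10 genes were examined this way, 10 groups in all, and chance gives such a value in about 1 of 20 groups. That rate is for independent values without ties, and PDGF-CC arrays 2 and 3 held exactly the same Smad6 value. PBS, with 3 arrays, was not examined this way. PDGF-CC array 4 was also the highest array for Id2, Smad7 and Acvrl1.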

How the results depend on the processing

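Alternatives covered the brightness filter, repeated quantile normalization, median centring, the variance prior, array weights, description number as covariate or block, and each left-out array. No member passed the adjusted threshold under any of them. The count of probe sets past it, 0 with all arrays, was 3 with a stricter filter (50th percentile), 1 with repeated quantile normalization, 3 with median centring, 3 with the trended and robust prior, and 0 to 1 on leaving out 1 array. The members' median ran from +0.04 to +0.19 on leaving out 1 array. With the replicate block no probe set passed and the median was +0.08; deviations of same-numbered arrays correlated at 0.0844 to 0.163, so the numbers were not taken as pairs. Signs turned for some values. Acvrl1 was at -0.002 with the replicate block, -0.003 within description numbers 1 to 4 and -0.002 to +0.02 without 1 array. Leaving out 1 array gave -0.04 to +0.27 for Id1, -0.04 to +0.25 for Id3, -0.16 to +0.10 for Id4 and -0.26 to +0.0003 for Eng. Id4 was at +0.04 with array weights and +0.01 with description number. Within numbers 5 to 7, which hold 1 PBS array, Id1 was at -0.23, Id3 at -0.25, Id4 at +0.41, Gdf5 at -0.02, Inhbb at +0.04, Ski at -0.05 and Smad9 at -0.05. For deviations from group means, 0 of 45 member pairs passed, as without that step. Causes were not tested. Averaging probe sets of a gene was not run, since each member has 1.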

Other observations

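Some arrays held a larger share of the extreme values of the wider pathway than of all tested genes, and others a smaller share. PBS array 2 was strictly the lowest array for 26 of the 91 further pathway genes (28.6%), where it was the lowest for 18.4% of all tested genes, and for 4 of the 10 members (Id1, Id3, Smad7 and Skil). PDGF-CC array 4 was strictly the highest for 22 of the 91 (24.2%), where it was the highest for 12.1% of tested genes, and for 4 of the 10 members (Id2, Smad6, Smad7 and Acvrl1). PDGF-CC array 3 was the highest for 20.9% of the 91 against 13.5% of tested genes. Other shares were smaller than among tested genes. For example, PDGF-CC array 2 was strictly the highest for 6.59% against 13.8%, and PBS array 1 for 5.49% against 11.0%. PBS array 3 was strictly the lowest for 6.59% against 11.5%. These shares were picked from those of all arrays and were not tested, and genes are not independent of each other.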
